A study of Mus musculus with 2 samples.

Results

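The 10 genes described here encode the enzymes that place the repressive marks of DNA methylation and of Polycomb repressive complex 2 (PRC2), together with their closest partners: *Dnmt1*, *Dnmt3a*, *Dnmt3b*, *Uhrf1*, *Uhrf2*, *Hells*, *Ezh1*, *Ezh2*, *Eed* and *Suz12*. They were chosen by name, by the gene name or RefSeq accession of each array probe, and are 10 of 27790 genes or transcripts that the arrays measure. These genes and the lists below were chosen with earlier results of these data known. Their counts beside the shares of all genes are therefore description only. All 10 were found, with 19 probes. RNA of B16F1-GFP-D was compared with that of B16F1-GFP-M, both being GFP-labelled lines of the mouse melanoma B16F1. B16F1-GFP-M is the maternal line. B16F1-GFP-D is a single clone grown out of GFP+ cells that had been sorted from pooled organs of tumour-free control and immunised mice 1 year after challenge with the maternal cells, and its authors call it dormant DMC-derived, for disseminated melanoma cells. Both lines were grown as untreated cultures in DMEM with 10% serum, so the comparison is between dividing cultures and not of cells resting in an organ. There were 2 Agilent 2-colour arrays with exchanged dyes: array 1 carried B16F1-GFP-D in Cy3 and array 2 carried it in Cy5. The labels name no separate cultures, so there was 1 replicate per line. No test between the lines was possible, and every SD given is between the 2 arrays and covers dye and spot error only.

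DNA methylation is copied at each cell division and also written anew. DNMT1 is the maintenance enzyme, which methylates the new strand behind the replication fork. UHRF1 recognises the half-methylated DNA left by replication and recruits DNMT1 to it, while UHRF2 is its close relative. HELLS is a chromatin remodeller needed for normal methylation of repeated DNA, and DNMT3A and DNMT3B are the de novo enzymes. PRC2 methylates histone H3 on lysine 27. EZH2 and EZH1 are its alternative catalytic subunits, EZH2 being the form typical of dividing cells and EZH1 the form found more widely in resting ones, and EED and SUZ12 are the partners both need.

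The labelled cell type was checked first. All 7 melanocyte markers were detected, and none of them passed 2-fold, with mean log2 ratios from -0.92 (*Mitf*) to 0.30 (*Pmel*). Of markers for other cell types, 2 of 7 were detected for fibroblasts, 2 of 7 for leukocytes, 1 of 5 for endothelial cells, 2 of 5 for neural cells and 0 of 4 for liver. A gene counted as detected if, for 1 line or both, its brightest probe stood well above background each time, as did 12540 of the 27790 genes. All 10 members were detected, and in both lines.

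The arrays read each gene through probes of 60 bases. The probes of *Dnmt1*, *Dnmt3a*, *Ezh2* and *Eed* that carry the values below are shown because they span an exon junction: their ends lie 369, 782, 896 and 2910 bases apart on mm9, at chr9:20711973-20712341, chr12:3906868-3907649, chr6:47482047-47482942 and chr7:97113321-97116230. They therefore read spliced transcripts of these genes.
Dnmt1: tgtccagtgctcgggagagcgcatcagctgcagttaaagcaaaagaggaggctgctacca
Dnmt3a: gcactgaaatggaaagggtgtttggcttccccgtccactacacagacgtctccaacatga
Ezh2: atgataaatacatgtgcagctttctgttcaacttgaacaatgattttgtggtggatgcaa
Eed: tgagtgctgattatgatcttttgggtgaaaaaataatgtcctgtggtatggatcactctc

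The maintenance pair of DNA methylation, *Uhrf1* and *Dnmt1*, and the PRC2 enzyme *Ezh2* were higher in B16F1-GFP-D. Of their relatives, *Dnmt3a* had a mean log2 ratio of 0.68, *Dnmt3b* 0.06, *Ezh1* -0.04 and *Uhrf2* -0.10, none of them past 2-fold, and the other 2 *Uhrf2* probes had -0.44 and -0.35. *Uhrf1* was 3.12-fold, *Dnmt1* 2.61-fold and *Ezh2* 2.20-fold higher in B16F1-GFP-D, each past 2-fold on both arrays. No member was past 2-fold lower. Among all 12540 detected genes, 3.09% were past 2-fold higher on both arrays and 1.94% past 2-fold lower, against 3 and 0 of the 10 members. In these bulk samples, fewer cells that express a gene and less of its RNA per cell cannot be told apart.

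The normalised intensities, taken after background correction and dye normalisation and comparable only within a probe, show the size of these differences. The brightest *Uhrf1* probe (chr17:56462657-56462716, mm9) read 7097 in B16F1-GFP-D and 2228 in B16F1-GFP-M on array 1, and 6116 and 2007 on array 2. Both B16F1-GFP-D values were above both B16F1-GFP-M values, and the log2 ratio was 1.67 on array 1 and 1.61 on array 2 (mean 1.64 ± 0.05, SD). A second *Uhrf1* probe, at chr17:56462554-56462613, gave log2 ratios of 1.66 and 1.83. Both probes of this gene thus passed 2-fold on each array.

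*Dnmt1* was read by 1 probe, at 930 in B16F1-GFP-D and 350 in B16F1-GFP-M on array 1, and at 894 and 348 on array 2. The lines did not overlap, and the log2 ratios were 1.41 and 1.36 (mean 1.39 ± 0.04, SD). *Ezh2*, also with 1 probe, read 1214 in B16F1-GFP-D and 584 in B16F1-GFP-M on array 1, and 1288 and 553 on array 2. Its log2 ratios were 1.06 and 1.22 (mean 1.14 ± 0.12, SD), the former only just past the threshold of 1.

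*Hells* and *Dnmt3a* were the next in size and lay below the threshold. *Hells* read 338 in B16F1-GFP-D and 184 in B16F1-GFP-M on array 1, and 333 and 190 on array 2, a log2 ratio of 0.85 ± 0.05 (SD), or 1.80-fold. Its second probe was well above background in only 2 of its 4 readings and gave 0.27 and 0.04. *Dnmt3a* read 1357 against 858 on array 1 and 1366 against 846 on array 2, B16F1-GFP-D first, a log2 ratio of 0.68 ± 0.02 (SD), or 1.60-fold. Its other 2 probes had lower mean ratios, of 0.42 and 0.35, with the same sign on both arrays.

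The remaining members differed little between the lines. *Eed* read 298 in B16F1-GFP-D and 250 in B16F1-GFP-M on array 1, and 364 and 275 on array 2, with a mean log2 ratio of 0.33 ± 0.10 (SD). *Suz12* read 1831 against 1663 and 1840 against 1594, with a mean log2 ratio of 0.17 ± 0.05 (SD). A second *Suz12* probe, well above background in all 4 readings, lay on the other side of 0, at -0.23 and -0.05, so that the direction for *Suz12* depended on the probe. The other 2 *Eed* probes were near background, with means of 0.03 and 0.06.

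*Dnmt3b* read 109 in both lines on array 1, and 108 against 100.2 on array 2, B16F1-GFP-D first, for a mean log2 ratio of 0.06 ± 0.07 (SD). Its signal was only 2.00 to 2.81 times its local background, a range in which the background correction draws ratios towards 0. *Ezh1* read 179 in B16F1-GFP-D and 187 in B16F1-GFP-M on array 1, and 174 and 176 on array 2, for a mean of -0.04 ± 0.04 (SD). *Uhrf2* read 1298 against 1591 on array 1 and 1649 against 1546 on array 2, with log2 ratios of opposite sign, -0.29 and 0.09 (mean -0.10 ± 0.27, SD). The other 2 *Uhrf2* probes were both lower in B16F1-GFP-D each time, with means of -0.44 and -0.35.

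**Figure D1:**
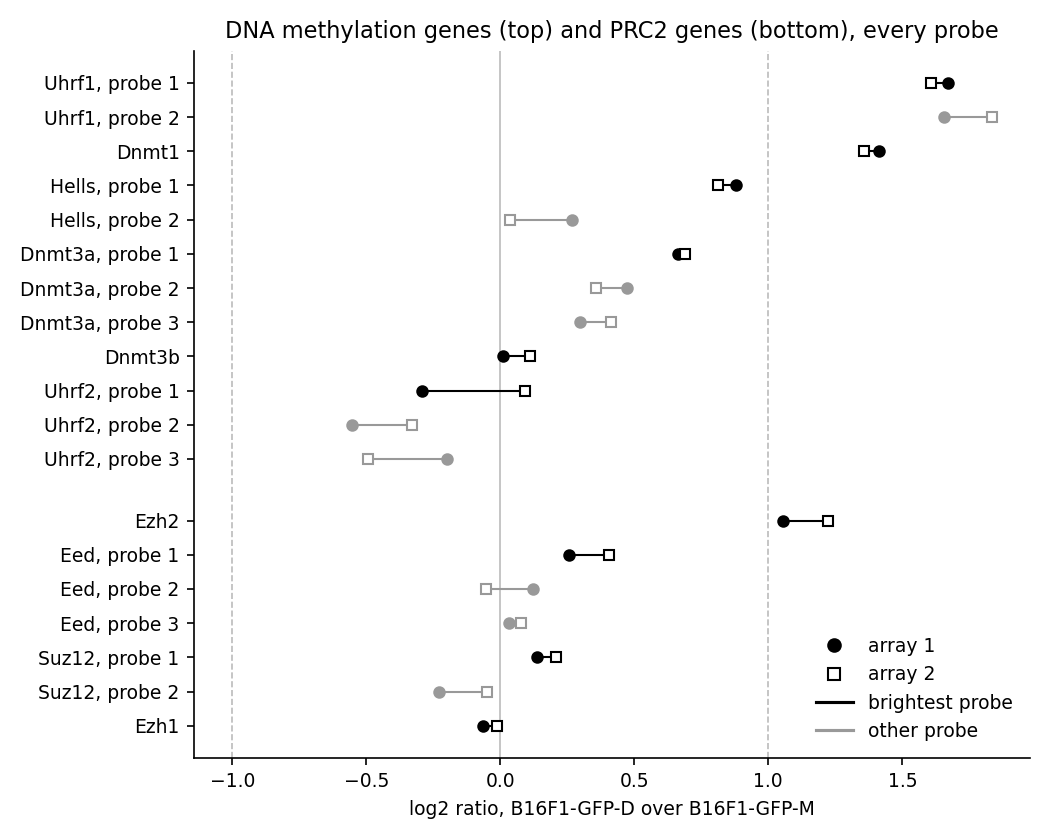
The log2 ratio between the lines (x axis, B16F1-GFP-D over B16F1-GFP-M) for each of the 19 probes, with array 1 as filled circles, array 2 as open squares, the brightest probe of a gene in black and other probes in grey; dashed lines mark 2-fold. Both *Uhrf1* probes and the probes of *Dnmt1* and *Ezh2* lie past 2-fold on both arrays, and the *Uhrf2* probes lie at or below 0 except for 1 array of 1 probe.

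**Figure D2:**
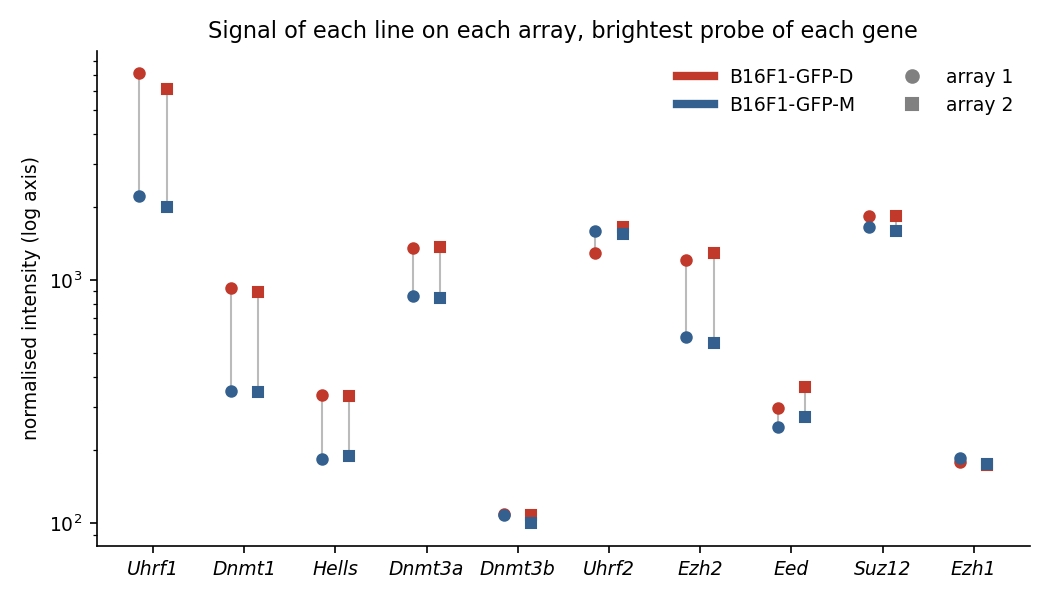
Normalised intensity (log axis) of the brightest probe of each gene, B16F1-GFP-D in red and B16F1-GFP-M in blue, array 1 as circles and array 2 as squares, joined within an array; heights can be compared within a gene but not between genes. The lines stand apart on both arrays for *Uhrf1*, *Dnmt1*, *Hells*, *Dnmt3a* and *Ezh2*, and nearly coincide for *Dnmt3b* and *Ezh1*.

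Over the 10 members, the median log2 ratio was 0.50, beside -0.01 over all detected genes, and it was 0.27 when each gene took the median of its probes. By the brightest probes it was 0.76 for the 6 DNA methylation genes and 0.25 for the 4 PRC2 genes, and by the median of each gene's probes 0.47 and 0.06. On both arrays, 8 members were higher in B16F1-GFP-D at any size, 1 was lower and 1 had opposite signs, where the shares of all detected genes were 41.0% higher and 42.8% lower. With the threshold set at 1.5-fold, 5 members passed (*Uhrf1*, *Dnmt1*, *Ezh2*, *Hells* and *Dnmt3a*), against 8.77% of detected genes. With 3-fold, *Uhrf1* alone passed, against 0.590% of detected genes.

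Ranked by their ratio, the members ran from *Uhrf1* through *Dnmt1*, *Ezh2*, *Hells*, *Dnmt3a*, *Eed*, *Suz12*, *Dnmt3b* and *Ezh1* to *Uhrf2*. The SD between arrays, pooled over detected genes, was 0.15 for a log2 ratio and 0.21 for a difference of 2 ratios. Both give the spread on 1 array, and means of 2 arrays spread less. As reported, *Hells* minus *Dnmt3a*, at 0.17, and each step from *Eed* down to *Uhrf2* lay below 0.21, which does not show that these genes were alike. Under the software's ratios *Hells* minus *Dnmt3a* was 0.51, *Eed* minus *Suz12* 0.22 and *Dnmt3b* minus *Ezh1* 0.45. With an offset of 0 the first was 0.40 and the second 0.24. The steps between *Uhrf1*, *Dnmt1*, *Ezh2* and *Hells* were 0.25, 0.25 and 0.29, and that from *Dnmt3a* to *Eed* 0.35. Under the software's ratios the step from *Uhrf1* to *Dnmt1* was 0.06 and that from *Ezh2* to *Hells* 0.05, with an offset of 0 they were 0.09 and 0.12, and on array 2 alone that from *Dnmt1* to *Ezh2* was 0.14 and on array 1 alone that from *Ezh2* to *Hells* 0.18, all within the spread, so the order of these 4 genes was not settled. Among the 12540 detected genes, *Uhrf1* ranked 77 from the top, *Dnmt1* 169, *Ezh2* 352, *Hells* 710 and *Dnmt3a* 1079.

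Related proteins were then compared with each other as the difference of their log2 ratios within an array. *Ezh2* exceeded *Ezh1* by 1.12 on array 1 and 1.23 on array 2, so that the balance of the alternative PRC2 enzymes at the RNA level was shifted 2.26-fold towards *Ezh2* in B16F1-GFP-D. *Uhrf1* exceeded *Uhrf2* by 1.97 and 1.51, a mean shift of 3.34-fold, and over all 6 combinations of their probes the mean difference ran from 1.74 to 2.19. Both mean differences exceeded the pooled SD of a difference, 0.21, several times over.

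The maintenance enzyme *Dnmt1* was also set against the de novo enzymes. It exceeded *Dnmt3a* by 0.75 on array 1 and 0.67 on array 2, a 1.63-fold shift, and by up to 1.03 with the other *Dnmt3a* probes. It exceeded *Dnmt3b* by 1.40 and 1.25, a 2.50-fold shift, where the low signal of *Dnmt3b* limits the comparison. These values describe unequal differences within the arrays and do not show that *Ezh1*, *Uhrf2* or *Dnmt3b* were the same in both lines.

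Genes of proliferating cells were higher in B16F1-GFP-D along with *Uhrf1*, *Dnmt1* and *Ezh2*. All 13 proliferation comparators, among them the replicative helicase subunits *Mcm2* to *Mcm7*, the replication clamp *Pcna*, *Rrm2*, a subunit of ribonucleotide reductase, and *Mki67*, were past 2-fold higher in B16F1-GFP-D. By their brightest probes, their mean log2 ratios ran from 1.19 (*Ccna2*) to 2.20 (*Rrm2*), with a median of 1.62. Another probe of *Mcm4* had a mean of 0.04, and another of *Top2a* -0.04. By the median of each gene's probes 11 of the 13 passed 2-fold, and with median centring 2. The summed intensity of the 13 was 101103 and 101430 in B16F1-GFP-D on arrays 1 and 2, and 32511 and 29891 in B16F1-GFP-M. *Uhrf1*, at 1.64, did not differ from the median of 1.62 beyond the spread. *Dnmt1*, at 1.39, lay below that median but within the range of the list. *Ezh2*, at 1.14, lay below all 13 comparators, though within the spread of the lowest of them. *Hells* and the members after it lay lower still. These are RNA levels, and cell division was not measured on these arrays. From its own cell cycle analysis, the paper reports that arrest in G0/G1 was more frequent in the dormant DMC-derived line. Whether the lines differed in proliferation when this RNA was taken was not tested. Nor was the part of any such difference in the values of the members.

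Of 8 detected partners of the DNA methylation enzymes, 2 were past 2-fold higher in B16F1-GFP-D, *Lig1* and *Pclaf*. At any size, 7 were higher on both arrays and 1 was lower, where 41.0% of all detected genes were higher. The median log2 ratio of the 8 was 0.40, and on array 1 it was 0.35. With detection judged by array 1 alone, which changes the genes counted, the median there was 0.26. *Lig1*, the DNA ligase of the lagging strand, whose methylated form is bound by UHRF1, was 4.08-fold higher (log2 ratios 2.07 and 1.99). *Pclaf*, the PCNA-associated factor that takes part in recruiting DNMT1 to replicating DNA, was 3.98-fold higher (2.05 and 1.93). Both work at the replication fork. *Cdca7*, which recruits HELLS to chromatin, had log2 ratios of 0.74 and 0.88, and its relative *Cdca7l* 0.45 and 0.55, neither past 2-fold. *Dnmt3l*, *Dppa3* and *Zfp57*, factors of germ cells and early embryos, were not detected.

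No reader of methylated DNA passed 2-fold. Of 9 detected, 2 were higher on both arrays, 5 lower and 2 of opposite sign, with a median of -0.14. The largest differences were in *Zbtb4*, a zinc finger repressor that binds methylated DNA, at -0.82 and -0.89, and in *Mbd3*, a subunit of the NuRD complex, at 0.49 and 0.74. Of the 9 detected genes of DNA demethylation, none passed 2-fold and the median was 0.12. The largest were the glycosylase *Neil1*, at -0.71 and -0.53, and the dioxygenase *Tet1*, at 0.48 and 0.33, which was not well above background in B16F1-GFP-M. The other *Neil1* probe had a mean of -0.13.

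The S-adenosylmethionine cycle supplies the methyl group for both systems. None of its 9 detected genes passed 2-fold on both arrays. Their median was 0.11, with 0.10 on array 1 and 0.06 on array 2. With detection judged by 1 array alone, it was 0.04 on array 1 and 0.06 on array 2. *Ahcy*, the enzyme that removes the inhibitory product of methylation, S-adenosylhomocysteine, came closest, with log2 ratios of 0.95 and 1.10.

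Around PRC2, the accessory subunits were mixed. Of 9 detected, 5 were higher on both arrays, 3 lower and 1 of opposite sign, with a median of 0.13. *Phf19*, a Polycomb-like protein that recruits PRC2 to its targets, was 2.45-fold higher (log2 ratios 1.33 and 1.26). Its relatives differed from it: *Mtf2* had 0.13 on both arrays and *Phf1* -0.55 and -0.77. The histone-binding subunits *Rbbp7* and *Rbbp4*, which other complexes also hold, had 0.66 and 0.59, and 0.22 and 0.37.

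PRC1, the complex that ubiquitinates histone H2A, had 26 detected subunits, of which 14 were higher on both arrays, 9 lower and 3 of opposite sign, with a median of 0.07. *L3mbtl2*, a subunit of a variant PRC1, was 2.13-fold higher by its brightest probe (1.08 and 1.10), while its other probe had a mean of 0.15. The catalytic subunits *Ring1*, at -0.44 and -0.35, and *Rnf2*, at -0.30 and -0.02, and the scaffold *Bmi1*, at -0.52 and -0.50, had ratios below 0 and did not pass 2-fold. Of 7 detected enzymes that remove Polycomb marks or help to do so, none passed 2-fold and the median was -0.21. The largest were *Asxl1*, a cofactor of H2A deubiquitination, at 0.62 and 1.07, and *Kdm6b*, an H3 lysine 27 demethylase, at -0.77 and -0.65. The lowest of the 3 *Asxl1* probes had a mean of 0.17.

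Genes known to be under the control of these marks were mostly not detected in either line, as were 15250 of all 27790 genes on the arrays. Of 17 germline genes silenced by DNA methylation, 16 were not detected, and *Rhox5*, the homeobox gene that was, had log2 ratios of -0.11 and 0.01. Of 26 imprinted genes, 8 were detected, with a median of 0.22, and of 0.12 on array 1. With detection judged by array 1 alone the median there was 0.09, and with no filter on dim probes it was 0.04. *Mest* was 3.27-fold higher in B16F1-GFP-D (1.69 and 1.73) and alone passed 2-fold among these 8. Of 26 developmental regulators marked by Polycomb, 23 were not detected, and of the 3 that were, the transcription factor gene *Pax9* had -0.60 and -0.53.

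The *Hox* genes, classical Polycomb targets, were detected more often than those lists, at 18 of 38, beside 12540 of all 27790 genes. Of the 18 detected *Hox* genes, 4 were higher on both arrays, 10 lower and 4 of opposite sign, with a median of -0.16. For these 18 genes it was -0.28 on array 1 and -0.20 on array 2, and under the software's ratios -0.48. With detection judged by 1 array alone, which changes the genes counted, it was -0.08 on array 1 and -0.06 on array 2. *Hoxb9* was 2.39-fold lower in B16F1-GFP-D (log2 ratios -1.34 and -1.17), and it was the only detected *Hox* gene past 2-fold by this rule. RNA levels alone say nothing of the marks themselves, and no DNA methylation or histone mark was measured on these arrays.

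**Figure D3:**
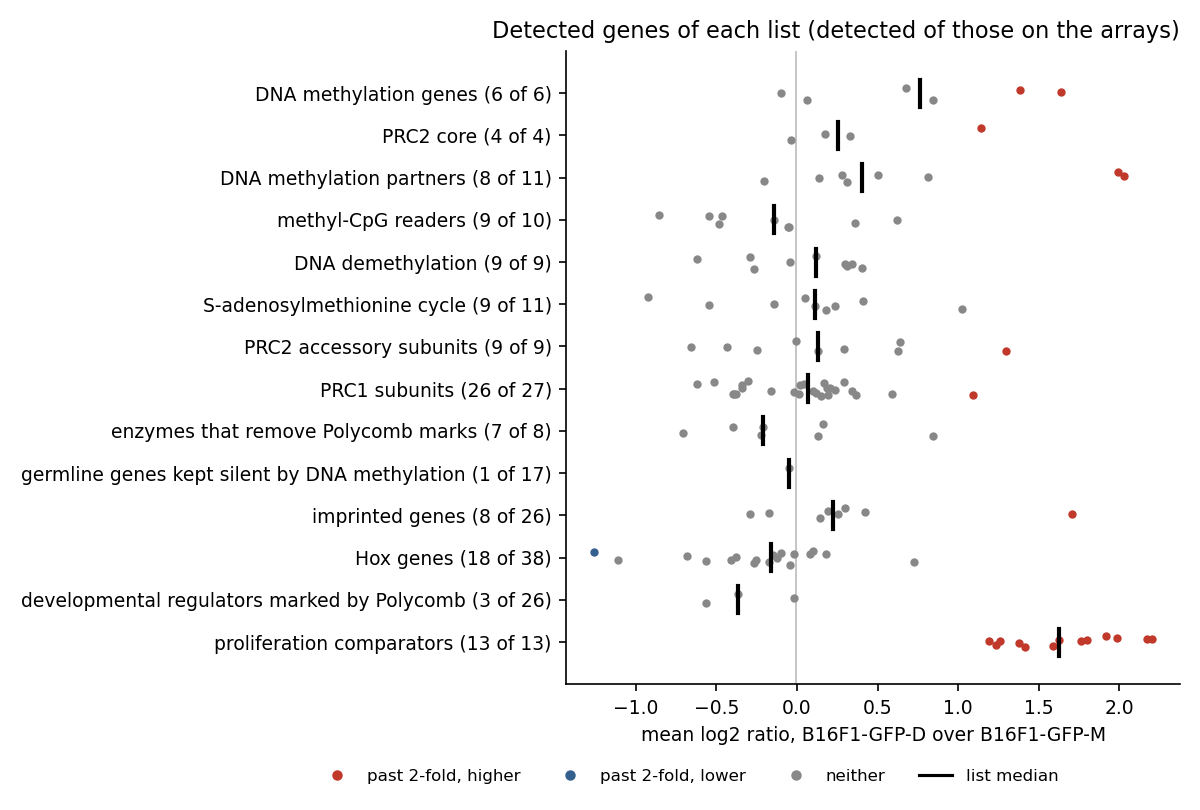
The mean log2 ratio between the lines (x axis, B16F1-GFP-M as the denominator) of each detected gene in each list, with genes past 2-fold on both arrays in red (higher) or blue (lower), the list median as a black bar and the median of all detected genes as a grey line; counts give detected genes of those on the arrays. By their brightest probes, all 13 proliferation comparators and 3 of the 10 members lie past 2-fold, while no reader, demethylation gene or enzyme that removes Polycomb marks does.

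The promoters of the members were searched for the letters of the E2F motif, the site of the factors that drive genes of the G1 to S transition (TTTCCCGC, TTTGGCGC, TTTCGCGC or TTTGCCGC, on both strands). The windows, from RefSeq on GRCm38.p6, run from 250 bases before a transcription start through 50 bases from it on, and all 10 members matched by symbol, with 15 windows. The letters were found in 5 of the 10 genes: the 4 with the highest ratios, *Uhrf1*, *Dnmt1*, *Ezh2* and *Hells*, and also *Suz12*, whose ratio was 0.17. No window of *Dnmt3a*, *Dnmt3b*, *Uhrf2*, *Ezh1* or *Eed* held them, which says only that these letters are not in these windows. By window, 5 of the 15 held the motif, beside 2.26% of all 32851 windows, and by gene, 5 of the 10, beside 704 of all 27025 genes with a window. Every string searched holds CG, and the windows of the members had a median of 30 CG beside 7 over all windows. The shares are therefore not between windows alike in CG, and the part of CG content in them was not tested.

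The sequences with a match are shown 5′ to 3′ on the strand of the gene, with the motif in capitals, since they are what these 5 genes share. The 250 bases before the start are given for *Uhrf1* (chr17:56304063-56304312, plus strand), *Hells* (chr19:38930740-38930989, plus strand) and *Suz12* (chr11:79992856-79993105, plus strand), where the motif began 185, 62 and 219 bases before the start.
Uhrf1: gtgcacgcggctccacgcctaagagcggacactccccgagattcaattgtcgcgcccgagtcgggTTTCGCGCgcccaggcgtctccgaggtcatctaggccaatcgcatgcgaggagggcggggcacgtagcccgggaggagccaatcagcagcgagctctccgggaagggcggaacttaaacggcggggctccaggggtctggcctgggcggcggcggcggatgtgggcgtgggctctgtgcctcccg
Hells: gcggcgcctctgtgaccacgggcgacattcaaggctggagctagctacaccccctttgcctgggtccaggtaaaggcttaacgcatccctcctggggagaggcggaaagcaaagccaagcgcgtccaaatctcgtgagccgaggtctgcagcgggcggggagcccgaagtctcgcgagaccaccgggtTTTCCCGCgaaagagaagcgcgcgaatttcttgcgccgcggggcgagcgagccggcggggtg
Suz12: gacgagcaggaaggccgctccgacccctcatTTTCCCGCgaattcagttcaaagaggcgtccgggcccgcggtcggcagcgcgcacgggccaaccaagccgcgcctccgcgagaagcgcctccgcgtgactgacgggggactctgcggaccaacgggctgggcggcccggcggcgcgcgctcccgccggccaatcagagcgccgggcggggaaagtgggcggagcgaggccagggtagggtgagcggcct

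For *Dnmt1* and *Ezh2*, a short run around each match is given. One *Dnmt1* window held 2 matches, the first 219 bases before the start and on the opposite strand (chr9:20952824-20952853, minus strand), the other from base 34 of the transcript (chr9:20952574-20952601, minus strand). In *Ezh2* the match began at base 4 of the transcript (chr6:47595009-47595038, minus strand).
Dnmt1: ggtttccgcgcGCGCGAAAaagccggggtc
Dnmt1: gcggggcagcgTTTGGCGCgggctgtgc
Ezh2: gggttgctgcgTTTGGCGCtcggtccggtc

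The cell cycle element CHR (TTTGAA or TTCGAA, both strands) was found in *Dnmt1*, *Dnmt3b*, *Eed* and *Suz12*, that is in 4 of the 15 windows and 4 of the 10 genes, beside 19.2% of all windows and 21.7% of all genes, and no CHR match overlapped an E2F match. The *Dnmt1* match lay in another window than its E2F matches. The windows of the members were rich in CpG, with a median of 30 per window beside 7 over all windows. That richness was shared by members with and without a difference between the lines: *Ezh2* had 31 and *Ezh1* 23, and the windows with the most, 46 and 47, belonged to *Dnmt3a*. A match of letters is a description and shows no binding.

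**Figure D4:**
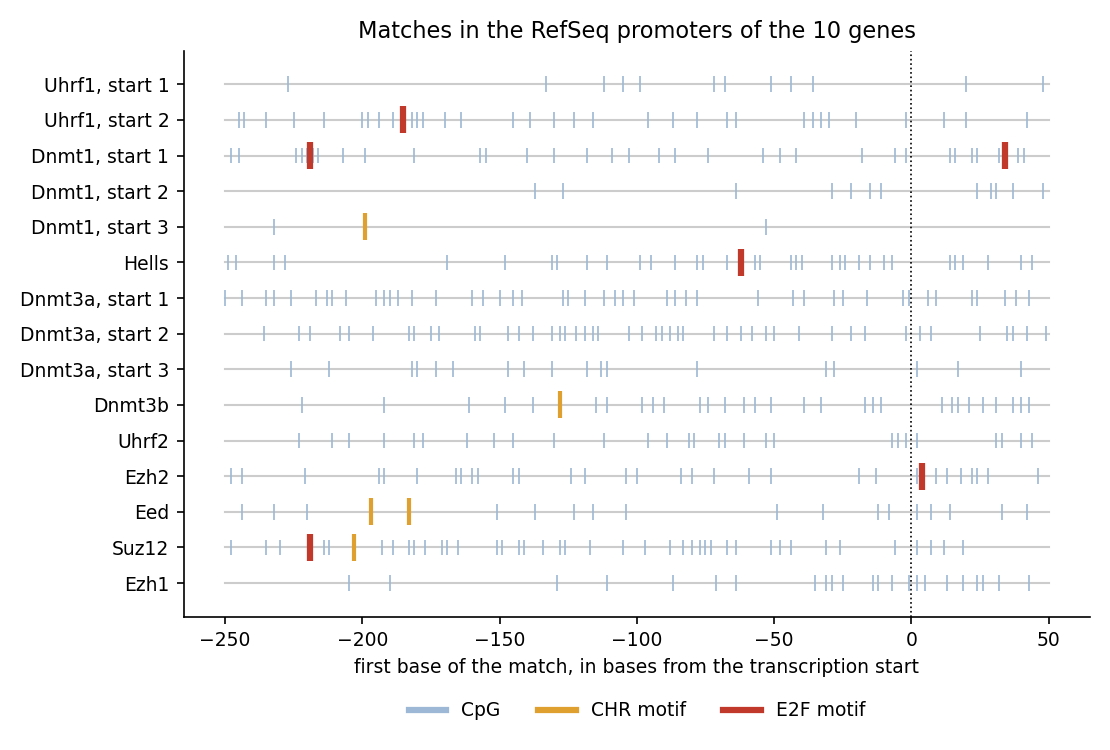
Position of each match in the 15 RefSeq windows of the 10 genes, in bases from the transcription start (dotted line), with CpG in blue, the CHR motif in orange and the E2F motif in red. The E2F motif stands in 1 window each of *Uhrf1*, *Dnmt1*, *Hells*, *Ezh2* and *Suz12* and in none of the other 10 windows.

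Whether a member passed 2-fold on both arrays depended on how dye bias was removed. With each array centred on its median in place of loess, no member passed 2-fold on both arrays: *Ezh2* had 0.06 on array 1 and 2.39 on array 2, while the median of all detected genes was -0.86 and 1.02. The mean of the 2 arrays, in which a dye effect cancels, kept *Uhrf1* at 1.83, *Dnmt1* at 1.44 and *Ezh2* at 1.22. Under the scanner software's own ratios, *Hells* passed 2-fold as well, at a mean of 1.20. Over all 11 alternatives, *Uhrf2* was below 0 in 9 and above 0 in 2, and *Ezh1* was below 0 in each.

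**Figure D5:**
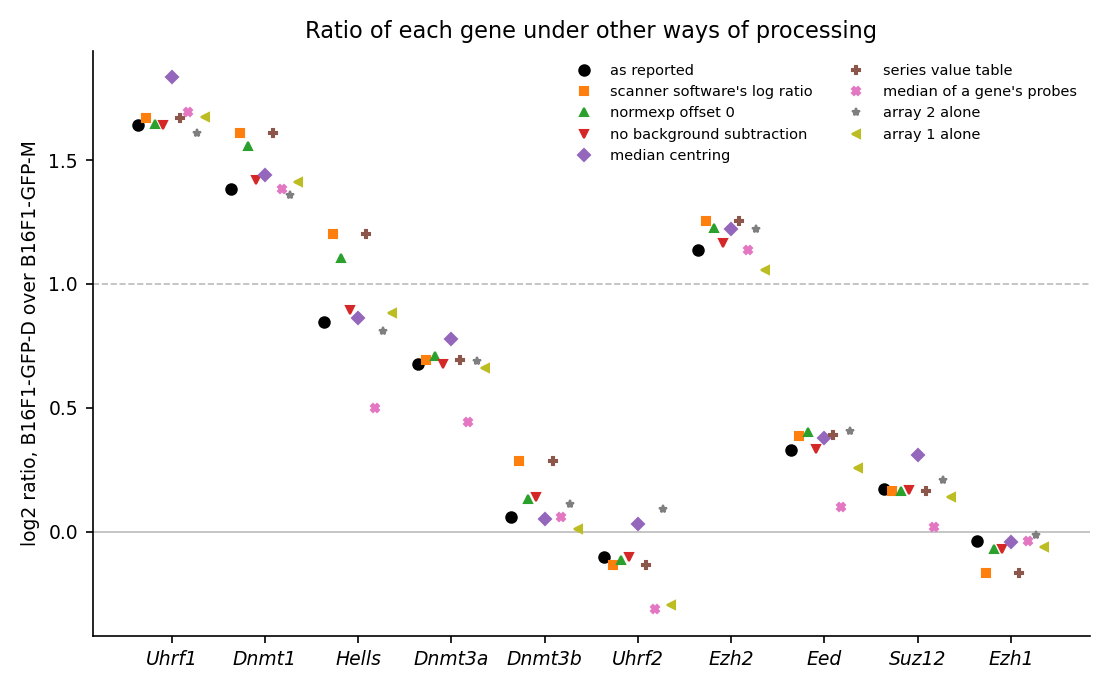
The log2 ratio between the lines (y axis, B16F1-GFP-M as the denominator) of each gene as reported (black) and under 8 other ways of processing, with each array alone among them; the dashed line marks 2-fold. *Uhrf1*, *Dnmt1* and *Ezh2* stay above the line under each of them, *Hells* crosses it under some, and *Uhrf2* falls on both sides of 0.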

How the data were processed

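RNA of the lines B16F1-GFP-D and B16F1-GFP-M was hybridised to 2 Agilent 2-colour arrays with exchanged dyes. The deposited spot and local background intensities come from the authors' scanner software (Agilent Feature Extraction 10.7.3.1, per the submitters' processing notes) and are not normalized. The deposited log10 ratios of Cy5 over Cy3, which this software computed after subtracting background and normalizing the dyes, and the series value table served as alternatives only. Flags of the software gave outlier spots and spots well above background. The p-values of the software's error model were not used.

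From 43379 spots that are not controls (41174 probes), outliers were left out (143 on array 1, 176 on array 2), and no spot was saturated. Of the spots, 44.1% and 56.1% were well above background for B16F1-GFP-D on arrays 1 and 2, and 60.7% and 45.0% for B16F1-GFP-M. The number of arrays limits the precision. In R 4.3.3 with limma 3.58.1, intensities were corrected by normexp with an offset of 50, normalized by loess within arrays, turned so that B16F1-GFP-D stands over B16F1-GFP-M on a log2 scale, and averaged per probe. A probe was named through its RefSeq accession (27198 of 28075 matched to GRCm38.p6, used for names and promoters) and otherwise by the file's gene name. Probe positions are on mm9, as deposited. A gene took its brightest probe. A gene was past 2-fold if its log2 ratio reached 1, or -1, on each of the arrays and it was detected, meaning that 1 line or both had stood well above background each time. No test stands behind that threshold.

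The members and gene lists were chosen with earlier results of these data known. Named genes are all members and, of each other list, those past 2-fold or else the 2 largest, except for genes that are not reported here, and a few other genes of the lists were named after their values were seen. The procedure was tested on simulated data. Tables and figures used Python 3.11.15, pandas 2.3.3, numpy 2.4.6 and matplotlib 3.10.9. The alternatives were other background corrections, dye normalizations, sources of ratios, filters, choices of probe, fold thresholds, and each array alone.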

Additional observations from a re-analysis of the deposited data

How the results depend on the processing

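*Uhrf1*, *Dnmt1* and *Ezh2* kept a positive mean ratio under each alternative, and passed 2-fold in 10 of the 11 alternatives other than fold thresholds. The exception was median centring in place of loess, under which 0 members passed. Not every alternative could have failed. A gene past 2-fold on both arrays stays so under Aquantile scaling and on each array alone. The filters also leave it so where both lines stood well above background. The series value table holds nearly the same ratios as the software's. Such counts of alternatives therefore overstate how many separate checks were made. At 1.5-fold 5 members passed, and at 3-fold 1. No member passed 2-fold lower under any alternative. Other ratios changed the count of all genes: 759 higher and 597 lower under the software's ratios, 758 and 594 under the series value table, and 635 and 442 with an offset of 0, where the main counts were 387 and 243. At 1.5-fold these were 1100 and 880, at 3-fold 74 and 49, and with median centring 45 and 19. *Ezh2* minus *Ezh1* was 1.42 under both the software's ratios and the series value table. Taking the median over a gene's probes, the median of the members was 0.27, *Uhrf1* minus *Uhrf2* 2.00 and *Dnmt1* minus *Dnmt3a* 0.94. Leaving out an array moved *Uhrf1* minus *Uhrf2* between 1.51 and 1.97. Aquantile scaling moved no ratio. The signs of the 13 list medians computed under the 11 alternatives stayed the same, those of the members included, while their size moved: from 0.47 to 0.95 for the DNA methylation genes, 0.06 to 0.34 for the PRC2 genes, 0.04 to 0.31 for imprinted genes and -0.48 to -0.06 for *Hox* genes. The germline and cell type marker lists were not recomputed. *L3mbtl2* passed 2-fold in 9 of 11 alternatives, *Lig1* and *Pclaf* in 11, and *Phf19*, *Mest* and *Hoxb9* in 10. The cause of these changes was not tested. *Dnmt3b* and the second probes of *Hells* and *Eed* are limited by signal near background. No paired analysis was possible because there was 1 replicate of either line. The slide could not serve as a block, since it held both arrays.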
